A study of Mus musculus with 8 samples.

Results

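Hepatocyte growth factor (HGF), the epidermal growth factor (EGF) family and their receptors were followed across the cell types of the mouse liver. The 10 genes were chosen by name, as rows of the deposited count table, from 46517 genes in all: the ligands *Hgf*, *Hbegf*, *Tgfa*, *Btc*, *Areg* and *Egf* and the receptors *Met*, *Egfr*, *Erbb2* and *Erbb3*. All 10 were measured. HGF is made as an inactive precursor that serine proteases cleave, and the active form binds the receptor tyrosine kinase MET, which in liver is best known for driving hepatocyte growth after injury. The EGF-family ligands are anchored in the membrane and released by sheddases. EGFR binds EGF, TGFα and amphiregulin, heparin-binding EGF (HB-EGF) and betacellulin bind EGFR and ERBB4, ERBB2 has no ligand of its own and ERBB3 has little kinase activity, so that these receptors signal as pairs.

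The study profiled single cells of the dissociated adult mouse liver by Smart-seq2, a plate-based method that reads full-length transcripts of 1 sorted cell per well. The mice were 8 weeks to 1 year old and of the C57BL6/J strain, or carried 1 copy of 1 or more of the reporters *Pdgfrb*-GFP, *Pdgfra*-H2bGFP, *Cspg4*-dsRED, *Acta2*-GFP and *Cldn5*-GFP, which mark cells in which those promoters are active. Cells were sorted by these reporters or by antibodies to CD31 or VE-cadherin, EPCAM, CD68 or PDGFRα, and hepatocytes were taken without a marker, so that the numbers of cells per type do not give their share of the liver. The submitters deposited 8 samples, which are the mesenchymal, endothelial, immune and epithelial cells of male (replicate 1) and of female mice (replicate 2). The labels do not say which cells came from which animal. They do not state the reporter line of each cell either, though some plate names contain Acta2 or Rb. The labels name no treatment.

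The table held 3491 cells, with 47063 to 1128421 counts per cell and a median of 228708. The male and female pools held 998 and 339 mesenchymal, 655 and 451 endothelial, 255 and 396 immune, and 358 and 39 epithelial cells. All female mesenchymal cells came from 1 plate and each of the 22 plates held 1 sex, so that sex and plate cannot be told apart. Of the 39 female epithelial cells 37 were cholangiocytes. No cell name, which gives plate and well, was repeated in the count table, and this says nothing on animals shared between pools. Levels are given as CPM, the counts of the summed cells of a group scaled to 1 common library total. The share of cells with at least 1 count is given with the share after each cell was thinned at random to 50000 counts, which left out 13 cells. Clusters and their names are the authors' and were made from the same transcriptomes, so that the tests between them are not independent of the grouping. Single markers were highest where the names put them: *Lrat* reached 1904 CPM in hepatic stellate cells (HSC), *Clec4f* 5295 CPM in Kupffer cells, *Epcam* 1004 CPM in cholangiocytes and *Mmrn1* 3899.7 CPM in lymphatic endothelial cells (LEC). Some summed lists were not specific by class. Portal vein markers (*Gja5*, *Ly6a* and *Cd34*) were at 1057 CPM in mesenchymal and 863 CPM in endothelial cells. Lymphatic markers (*Prox1*, *Mmrn1* and *Pdpn*) were at 217 CPM in epithelial and 94.8 CPM in endothelial cells. Mesothelial markers (*Msln*, *Gpm6a* and *Krt7*) were at 503 CPM in epithelial and 38.8 CPM in mesenchymal cells. Hepatocyte markers (*Alb*, *Apoa1*, *Cyp2e1*, *Cyp2f2* and *Ttr* summed) were counted in every class, at 7489 CPM in epithelial and 764 CPM in mesenchymal cells. The part of such carried RNA in low counts was not tested.

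In the GENCODE annotation of GRCm38, *Hgf* is at chromosome 5, 16553495 to 16620152, plus strand, and *Met* at chromosome 6, 17463800 to 17573980, plus strand. *Egfr* is at chromosome 11, 16752203 to 16918158, plus strand, and *Erbb2* at chromosome 11, 98412470 to 98437716, plus strand, while *Erbb3* is at chromosome 10, 128567523 to 128589652, minus strand. The EGF-family ligands *Areg* (chromosome 5, 91139599 to 91148432, plus strand) and *Btc* (chromosome 5, 91357261 to 91402994, minus strand) are neighbours, *Tgfa* is at chromosome 6, 86195223 to 86275719, plus strand and *Egf* at chromosome 3, 129677565 to 129755316, minus strand. An antisense gene, *Egfros*, lies inside *Egfr* and held 516 counts in all against 40946 for *Egfr*. Whether counting used the strand is not given in the sources used here, so reads of the pair cannot be told apart, and the same holds for *Mien1* at the end of *Erbb2*.

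The ligand counted most was *Hbegf*, with 54766 counts in 969 of the 3491 cells, followed by *Hgf* with 43847 counts in 925 cells and *Tgfa* with 22322 counts in 379 cells. Among the receptors, *Egfr* was counted in 1032 cells, *Erbb2* in 618, *Erbb3* in 167 and *Met* in 121. *Areg* was all but absent, with 51 counts in 2 cells, and *Egf* stayed under 10 CPM in every population. By annotated population, the genes peaked in different cells: *Hgf* in HSC, *Hbegf* in peribiliary vasculature (PBV) and arterial smooth muscle cells (artSMC), *Tgfa* in LEC and cholangiocytes, *Btc*, *Erbb2* and *Erbb3* in cholangiocytes, *Egfr* in fibroblasts named Wt1_FB, and *Met* in mesothelial cells, LEC, cholangiocytes and hepatocytes. By cluster, *Erbb2* was highest in #e8 and *Erbb3* in the hepatocyte cluster #p3. Per kilobase of exon, a scale on which genes can be compared, the highest population level of *Hgf* was 91 CPM per kb in HSC, of *Hbegf* 69.4 in PBV, of *Tgfa* 47.3 in LEC and of *Btc* 8.21 in cholangiocytes. On the same scale *Egfr* reached 23.3 in Wt1_FB, *Erbb2* 17.9 and *Erbb3* 11.5 in cholangiocytes, and *Met* 15.7 in the 6 mesothelial cells and 5.72 in cholangiocytes.

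**Figure D1:**
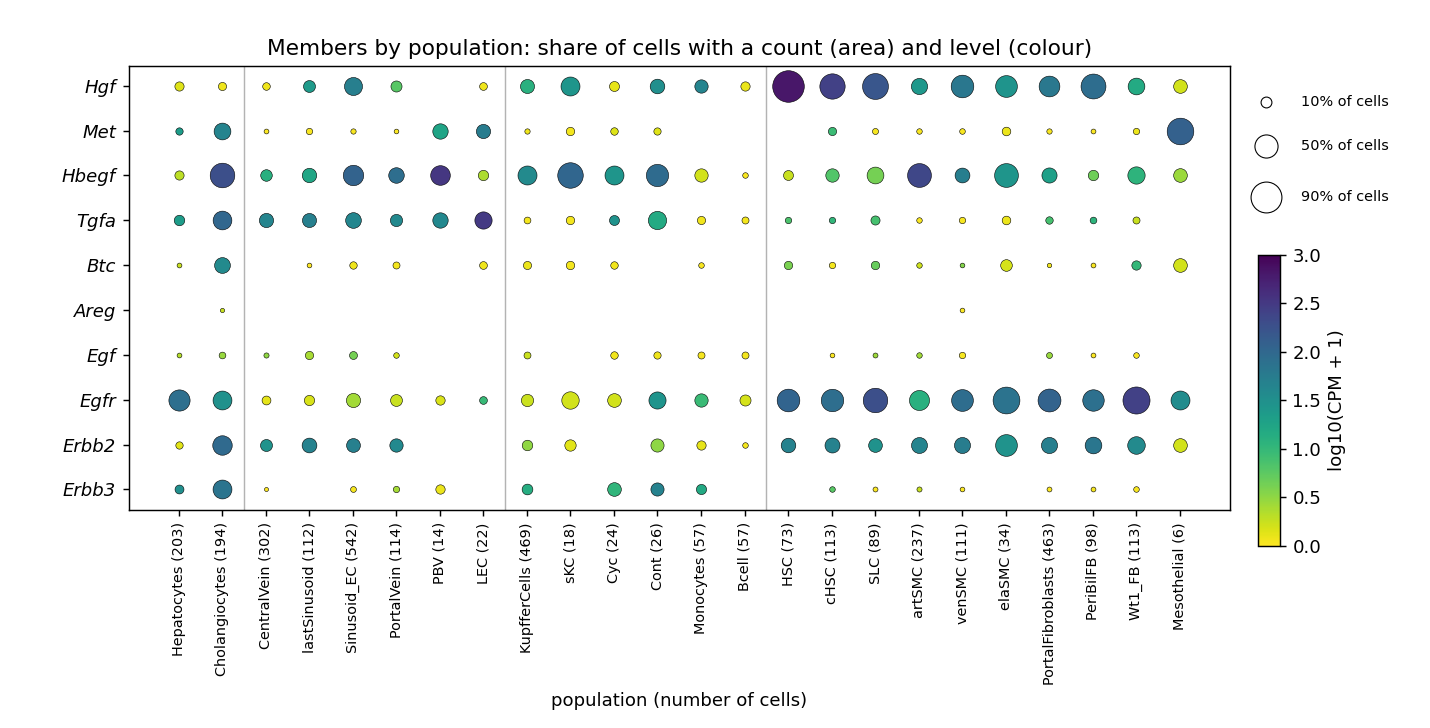
Level of the 10 genes (log scale, CPM) in the 24 annotated populations, both pools summed. *Hgf* is darkest in HSC at 654 CPM, *Egfr* in Wt1_FB at 264 CPM, and *Areg* is near 0 everywhere.

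Each class was compared with the mean of the other 3 on the log scale over the 8 pools, using the quasi-likelihood test of edgeR with p-values adjusted by Benjamini and Hochberg over all genes tested (abbreviated edgeR adjusted p). Calls needed an adjusted p below 0.05 together with a fold change of at least 1 on the log2 scale, in either direction, and these 4 comparisons share samples. In mesenchymal cells, 2 of the 9 genes tested were called higher, *Hgf* and *Egfr*, where 9.47% of all genes tested were called higher and 2.33% lower. None was called lower by edgeR, 1 (*Tgfa*) was lower at an unadjusted p under 0.05, and DESeq2 called 2 lower, against 4.55% of all genes. In endothelial cells, *Btc* and *Egfr* were called lower, against 2.96% of all genes. None was called higher by edgeR, against 5.33% of all genes, or by DESeq2, and 2 (*Hgf* and *Tgfa*) were higher at an unadjusted p under 0.05 on this log scale. In CPM, endothelial *Hgf* lay below the mean of the other 3 classes in both pools, at 36.9 against 49 CPM in males and 9.43 against 19.1 CPM in females, and *Tgfa* lay above it in males and below it in females. In immune cells, 3 genes were called lower, *Tgfa*, *Btc* and *Erbb2*, against 5.25% of all genes. None was called higher there by edgeR or DESeq2 or at an unadjusted p under 0.05, against 7.92% of all genes called higher. In epithelial cells, 6 of 9 were called higher, *Btc*, *Met*, *Tgfa*, *Erbb3*, *Egfr* and *Erbb2*, and *Hgf* was called lower, against 8.37% higher and 4.05% lower of all genes. The median log2 fold change of the genes tested was 2.91 in epithelial cells against -0.27 over all genes, and -2.60 in immune cells against 0.09. *Areg* was too rarely counted to be tested. When the cholangiocyte cluster was left out of the epithelial sums, 2 genes were called higher in epithelial cells, *Met* and *Egfr*, where 9.22% of all genes were.

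*Hgf*, the ligand of MET, was highest in mesenchymal cells, at 132 CPM in males and 42.9 CPM in females. Endothelial cells held 36.9 CPM in males and 9.43 CPM in females, immune cells 14.9 CPM in males and 14.2 CPM in females, and epithelial cells 0.261 CPM in males and 0.313 CPM in females. Mesenchymal cells were above every other class in both pools, and epithelial cells were below all 3. The log2 fold change against the other classes was 4.36 (SE 0.61, edgeR adjusted p = 0.00308) in mesenchymal and -6.85 (SE 1.03, edgeR adjusted p = 0.00445) in epithelial cells. In endothelial cells it was 1.59 (SE 0.62, edgeR adjusted p = 0.168), which was not called.

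Within the mesenchyme *Hgf* was highest in the stellate clusters. These had been found with *Reln*, *Lrat* and *Hgf*, so the levels are a description. HSC held 667 CPM in males and 505 CPM in females, the latter from 4 cells, and *Hgf* was counted in 69 of 73 HSC, or 94.5% (exact 95% Clopper-Pearson interval 86.6% to 98.5%, 91.8% thinned). Such intervals cover counting error only, as the reads carried no molecular identifiers. Capsular HSC (cHSC), the stellate cells near the capsule, held 302 CPM in males and 149 CPM in females, with *Hgf* in 68 of 113 cells (60.2%, 50.5% thinned). Both pools of cHSC lay below both pools of HSC. Second-layer cells (SLC), which lie next to the smooth muscle of veins, held 162 CPM in males and 139.6 CPM in females and counted *Hgf* in 62.9% of cells (56.2% thinned). Across the 18 populations with at least 5 cells in each pool, cHSC (225 ± 108 CPM, mean ± SD, n = 2 pools) and SLC (151 ± 15.9 CPM) overlapped, and both stood above venous smooth muscle cells (venSMC, 56.2 ± 25.1 CPM), from which the order ran down to portal vein endothelium with each neighbour overlapping the next. HSC had too few female cells for that order.

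Other mesenchymal cells also carried *Hgf*. Portal fibroblasts held 78 CPM in males and 26.4 CPM in females and counted it in 40.0% of cells (29.2% thinned), and peribiliary fibroblasts (PeriBilFB) 97.1 CPM in males and 1.49 CPM in females, a wide gap between pools with 9 female cells. Wt1_FB held 14 CPM and artSMC 23.9 CPM, where the highest cell alone reached 2476 CPM and the median of the 57 cells with a count was 6.6 CPM. In HSC that median was 544 CPM. Mesothelial cells held 0.606 CPM in 6 cells.

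In endothelium *Hgf* was counted mainly in sinusoids. Sinusoidal endothelial cells held 58.8 CPM in males and 14.7 CPM in females, with *Hgf* in 162 of 542 cells (29.9%, exact 95% interval 26.1% to 33.9%, 22.1% thinned). Their clusters ran from 65.2 CPM in #e3 through 44.1 CPM in #e5 to 15.7 CPM in #e8, and #e3 drew 81.4% of its cells from 1 plate. The last sinusoidal cells before the central vein (lastSinusoid) held 26.2 CPM in males and 21.2 CPM in females, while central vein endothelium held 0.124 CPM in males and 0.232 CPM in females and counted *Hgf* in 4.3% of cells (1.33% thinned). Portal vein endothelium lay between, at 1.1 CPM in males and 8.39 CPM in females, and no *Hgf* was counted in the 14 PBV cells, which allows a share of up to 21.4%. Where no cell had a count, the limit is 3 cells over the number of cells rather than an exact interval, and it bounds cells with a count, not cells that express the gene. Stellate markers (*Reln*, *Lrat* and *Lhx2* summed) were at 0.805 CPM in sinusoidal cells with an *Hgf* count and at 2.17 CPM in those without, and *Lhx2* was at 0 in the former. In HSC *Reln* alone was at 3574 CPM. The part of stellate RNA in the sinusoidal *Hgf* counts was not tested. The log2 fold change of *Hgf* in central vein cluster #e1 against the other endothelial clusters was -5.95 (SE 2.17, edgeR adjusted p = 0.272), and DESeq2 called it at -6.15. Those other clusters include #e7, which is also central vein and held 0.355 CPM. With #e7 joined to #e1 the value was -5.39 (edgeR adjusted p = 0.097).

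Among immune cells, those labelled Monocytes held 43.8 CPM of *Hgf* in 9 of 57 cells, with 1 cell giving 38% of the counts. The label covers 41 cells of #i2c, to the authors monocyte-derived macrophages, and 16 of #i7c, to them dendritic cells. In the 9 cells with *Hgf* the summed stellate markers were at 3.45 CPM, against 0.83 CPM in the others of that label, with *Lhx2* at 0 in the 9. Kupffer cells, the resident macrophages, held 1.62 CPM in males and 13.7 CPM in females, in 17.7% of cells (8.97% thinned). B cells held 0.271 CPM. In hepatocytes *Hgf* gave 1 count each in 14 of 203 cells, and in cholangiocytes it was at 0.192 CPM.

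*Met*, the HGF receptor, was highest in epithelial cells. Epithelial cells held 32.9 CPM in males and 77.2 CPM in females, and no other class exceeded 2.99 CPM in either pool. The log2 fold change against the other classes was 6.02 (SE 0.94, edgeR adjusted p = 0.00534). In immune cells it was -4.66 (SE 1.34, edgeR adjusted p = 0.0578), which was called with DESeq2, with no filter on low counts, with sums per plate, without the male endothelial pool, at -4.95 (edgeR adjusted p = 0.0337), and without the male mesenchymal pool, at -5.00 (edgeR adjusted p = 0.049). Cholangiocytes, the cells that line bile ducts, held 40.0 CPM in males and 79.1 CPM in females and counted it in 50 of 194 cells (25.8%, exact 95% interval 19.8% to 32.5%, 19.3% thinned). Hepatocytes held 21.6 CPM, but only 8 of 203 cells had a count (3.94%, 2.96% thinned) and 1 cell gave 53.4% of the counts. The share of cells with *Met* was therefore higher in cholangiocytes than in hepatocytes, before and after thinning. Between these types the log2 fold change of *Met* was 3.25 (SE 0.99, edgeR adjusted p = 0.0124) against the mean of the hepatocyte clusters, of which #p5 had no *Met* count in 57 cells. By cluster, #p1 held 44 CPM, #p3 45.8 CPM and #p4 14.3 CPM, next to 43.9 CPM in the cholangiocyte cluster #p2. The summed level in #p1 and #p3 was thus not below that of the cholangiocytes, but came from few cells. Per plate with at least 5 cells, #p1 ran from 0 to 252 CPM over 4 plates, with a median of 0. Cluster #p2 ran from 1.06 to 80.3 CPM over 6 plates, with a median of 46.1 CPM. On the 1 such plate of each, #p3 held 57.8 CPM and #p4 0.42 CPM. Against all hepatocytes summed, a comparison chosen after seeing the data, the log2 fold change was 0.35 and was not called. The call against the mean of the clusters was also lost with sums per plate.

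Outside the epithelium *Met* was counted in few cells. Mesothelial cells, which cover the capsule, held 121 CPM in 4 of 6 cells. LEC held 0 CPM in males and 81.2 CPM in females, in 4 of 22 cells, and all 5 cholangiocyte markers were at 0 in those 4 cells. PBV held 29.9 CPM in males and 9.61 CPM in females, in 3 of 14 cells. In the stellate cells, cHSC held 4.24 CPM in males and 19.5 CPM in females, while HSC had no *Met* count in 73 cells, which allows a share of up to 4.11%. *Met* was counted in 6 of 113 cHSC (5.31%, exact 95% interval 1.97% to 11.2%), and 1 cell gave 55.8% of those counts. *Hgf* and *Met* thus peaked in different cells, and their levels correlated across the 30 clusters at r = -0.49 on the log2(CPM + 1) scale, a description over clusters that share pools and plates.

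**Figure D2:**
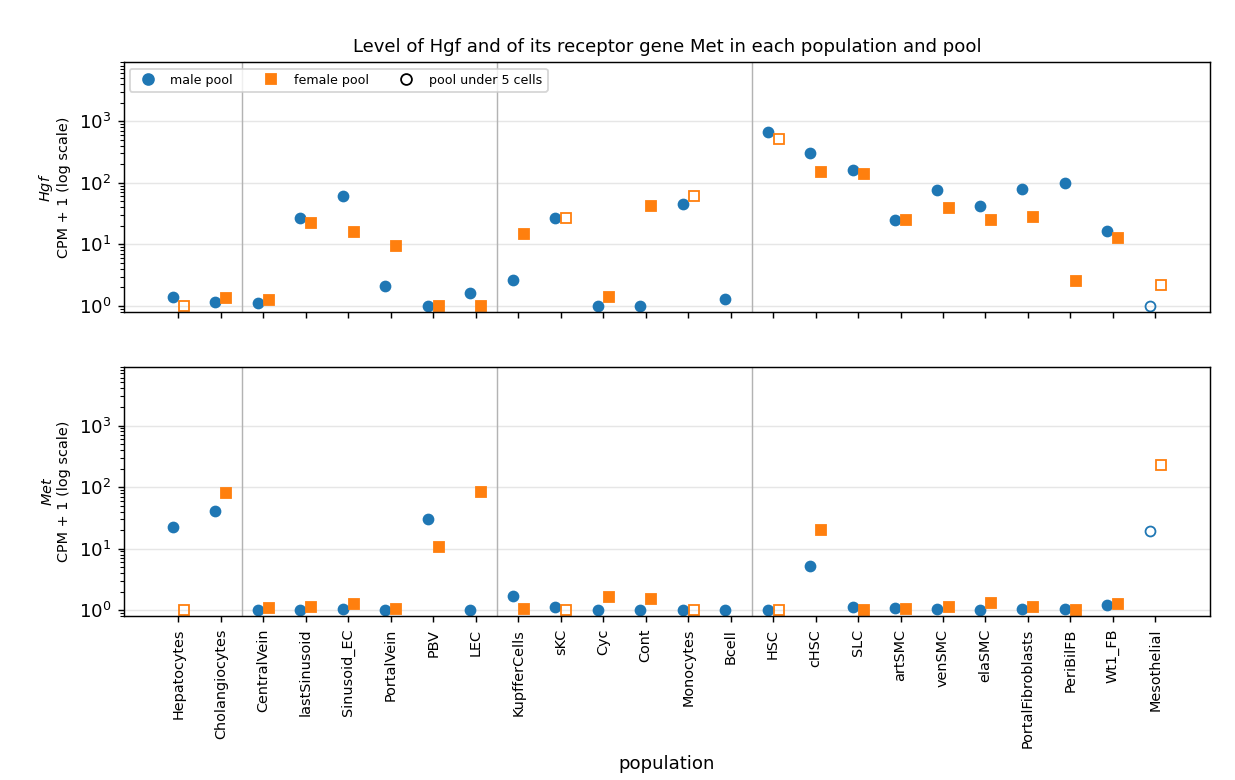
*Hgf* and *Met* levels (CPM + 1, log scale) in each population, 1 point per sex pool. *Hgf* is high in HSC and cHSC in both pools (667 and 505 CPM in HSC), whereas among populations with at least 5 cells in each pool *Met* is above 10 CPM in both only in cholangiocytes.

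The genes that activate HGF precursor or block that step lay largely in the epithelium. Of the 9 genes on this list, 6 were called higher in epithelial cells against the other classes, where 8.37% of all genes were. *Hgfac*, the HGF activator protease, rose by a log2 fold change of 5.74 (SE 1.02, edgeR adjusted p = 0.00894), *Hpn* (hepsin) by 6.71 (SE 0.59, edgeR adjusted p = 5.08e-04) and *St14* (matriptase) by 9.33 (SE 1.16, edgeR adjusted p = 0.00193). *Hgfac* was at 162 CPM in hepatocytes and 94.5 CPM in cholangiocytes. *St14* was at 286 CPM in cholangiocytes and 0.111 CPM in hepatocytes. Its inhibitors *Spint1* and *Spint2* were at 462 and 687 CPM in cholangiocytes, and in hepatocytes at 0.333 and 67.1 CPM. *Hpn*, *St14*, *Spint1* and *Spint2* were thus all higher in cholangiocytes than in any other population, and *Hgfac* in hepatocytes. In mesenchymal cells *Plat* (tissue plasminogen activator) rose by 5.75 (SE 0.71, edgeR adjusted p = 0.00179), while *Hpn* and *St14* fell. *Plat* was at 684 CPM in cHSC and 67.3 CPM in HSC. In the stellate clusters *Hpn* was called higher than in other mesenchymal cells, at 3.95 (SE 1.03, edgeR adjusted p = 0.0304), with 9.06 CPM in HSC against 290.2 CPM in hepatocytes. *Mst1*, the HGF-like protein, was at 77.7 CPM in hepatocytes and 13 CPM in cholangiocytes. Its receptor gene *Mst1r* was highest in mesothelial cells, at 115 CPM.

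*Hbegf*, which encodes HB-EGF, was counted in all 4 classes, and was called in none of them. Epithelial cells held 116 CPM in males and 162 CPM in females, endothelial cells 88.7 CPM in males and 38.1 CPM in females, mesenchymal cells 22.2 CPM in males and 107 CPM in females and immune cells 14.9 CPM in males and 45.7 CPM in females. The pools of the last 3 classes overlapped. The epithelial log2 fold change was 1.42 (SE 0.61, edgeR adjusted p = 0.182). It was -5.00 once the cholangiocyte cluster was left out, so its sign rested on the cholangiocytes. These held 189.7 CPM in males and 166 CPM in females, in 110 of 194 cells (56.7%, 43.2% thinned), against 0.972 CPM and 6.9% of cells (1.97% thinned) in hepatocytes. Between these types the log2 fold change was 7.88 (SE 0.87, edgeR adjusted p = 3.54e-07).

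In the other classes *Hbegf* peaked in vessels around bile ducts, in arteries and in sinusoids. PBV held 139.6 CPM in males and 443 CPM in females, in 5 of 14 cells. ArtSMC held 113 CPM in males and 299 CPM in females, in 126 of 237 cells (53.2%, 40.1% thinned), and venSMC 30.003 CPM in males and 111 CPM in females. Sinusoidal endothelium held 127 CPM in males and 43.4 CPM in females, from 159.9 CPM in #e3 to 43.4 CPM in #e5. Portal vein endothelium (94.4 CPM in males and 71.9 CPM in females) lay above central vein endothelium (15.8 CPM in males and 7.95 CPM in females) in both pools. The portal vein cluster #e2 against the other endothelial clusters gave 2.88 (SE 0.95, edgeR adjusted p = 0.178), which was not called. Stellate cells had little: HSC held 0.782 CPM and cHSC 5.47 CPM. Mural cell clusters were called higher than fibroblast clusters, at 2.70 (SE 0.74, edgeR adjusted p = 0.0426). That call was lost with sums per plate and with the sex pool as a block, in the latter at 2.22 (edgeR adjusted p = 0.249). The value without the female pool, for which no test was possible, was 0.13. Kupffer cells held 9.14 CPM in males and 43.3 CPM in females and the immune group labelled sKC 104 CPM, in 11 of 18 cells.

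*Hbegf* belongs to the genes that stress and cell dissociation can induce, and 9 immediate early genes (*Fos*, *Jun*, *Egr1* and others) were therefore summed beside it. All 9 were called higher in cholangiocytes than in hepatocytes, as was *Hbegf*, in a comparison that called 28.6% of all genes higher. Cholangiocytes with an *Hbegf* count had a median immediate early level of 11766 CPM, and those without one 2916 CPM. The median was higher in cells with *Hbegf* in 12 of the 15 populations with at least 10 cells of each kind. In sinusoidal cells the medians were 6499 and 3532 CPM. The order was the other way round in artSMC (18844 CPM with *Hbegf* and 23192 CPM without), in elaSMC (1987 and 5131 CPM) and in portal fibroblasts (7799.8 and 8256 CPM). Over the 30 clusters the sum and *Hbegf* correlated at r = 0.48 (Spearman rho 0.38), and clusters #m4, #m8 and #m9 had sums of 11361, 11370.4 and 13332 CPM with *Hbegf* at 3.6, 0.292 and 10.2 CPM. The part of dissociation in the *Hbegf* levels was not tested.

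*Tgfa*, which encodes the EGFR ligand TGFα, was called higher in epithelial and lower in immune cells. Epithelial cells held 61.7 CPM in males and 224 CPM in females, endothelial cells 42.5 CPM in males and 53.9 CPM in females, mesenchymal cells 6.21 CPM in males and 2.17 CPM in females and immune cells 3.01 CPM in males and 0.741 CPM in females. Epithelial and endothelial cells lay above the other classes in both pools. Against the other classes it changed by 4.17 (SE 0.65, edgeR adjusted p = 0.0053) on the log2 scale in epithelial and by -3.93 (SE 0.92, edgeR adjusted p = 0.0266) in immune cells. Both calls were lost when the cholangiocyte cluster was left out of the epithelial sums. The immune value was -3.35 (edgeR adjusted p = 0.106) without the female immune pool, and the endothelial value, 2.13 (SE 0.65, edgeR adjusted p = 0.0886) over all pools, was not called. It was called without the male immune pool, at 2.56 (edgeR adjusted p = 0.0476), with no filter on low counts, at 2.15 (edgeR adjusted p = 0.00195), with thinned cells, at 2.41 (edgeR adjusted p = 0.0179), and with sums per plate, at 2.95 (edgeR adjusted p = 0.00405).

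The highest *Tgfa* was in LEC, at 553 CPM in males and 197 CPM in females, from 6 of 22 cells. Cholangiocytes followed with 87.1 CPM in males and 229.9 CPM in females, in 32.5% of cells (28.1% thinned), and the pools of both populations overlapped in the order. Sinusoids held 40.0 CPM in males and 46.8 CPM in females, central veins 40.2 CPM in males and 43.7 CPM in females and portal veins 30.7 CPM in males and 43.9 CPM in females. In these 3 the pools lay close together, whereas the last sinusoids held 9.14 CPM in males and 67.2 CPM in females and PBV 108 CPM in males and 0.712 CPM in females. By cluster, both pools summed, the blood vessel endothelium ran from 12.4 CPM in #e5 to 60.4 CPM in #e8. Among hepatocytes, #p5 held 68.2 CPM in 8 of 57 cells, whereas #p4 held 9.48 CPM and #p1 and #p3 under 1 CPM. Cholangiocytes exceeded the mean of the hepatocyte clusters by a log2 fold change of 4.77 (SE 0.76, edgeR adjusted p = 3.19e-05). Against all hepatocytes summed it was 2.20, which was not called, and the call was also lost with sums per plate. Stellate clusters against other mesenchymal clusters gave 3.72 (SE 1.22, edgeR adjusted p = 0.138), with HSC at 6.13 CPM and cHSC at 9.53 CPM. That value turned to -4.14 without the male pool, so no direction is given.

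*Btc*, which encodes betacellulin, was above 10 CPM, both pools summed, only in cholangiocytes, at 37.9 CPM in males and 29.8 CPM in females and in 44 of 194 cells (22.7%, 19.3% thinned). The next population, Wt1_FB, held 11.7 CPM in males and 4.48 CPM in females, and its pools did not overlap those of cholangiocytes. Against the other classes the log2 fold change was 6.38 (SE 0.62, edgeR adjusted p = 8.03e-04) in epithelial cells, -4.23 (SE 0.86, edgeR adjusted p = 0.0223) in endothelial and -3.29 (SE 0.81, edgeR adjusted p = 0.0322) in immune cells. The endothelial value lost its call without either endothelial or either mesenchymal pool, at -4.03 (edgeR adjusted p = 0.211), -4.46 (edgeR adjusted p = 0.172), -4.17 (edgeR adjusted p = 0.0573) and -4.28 (edgeR adjusted p = 0.0548) without the male and female pool of each, and without the cholangiocyte cluster, at -2.78 (edgeR adjusted p = 0.137). The immune value lost its call without any 1 of the 6 immune, endothelial and mesenchymal pools, at -2.92 (edgeR adjusted p = 0.162), -3.99 (edgeR adjusted p = 0.078), -3.35 (edgeR adjusted p = 0.0682), -3.27 (edgeR adjusted p = 0.0787), -3.28 (edgeR adjusted p = 0.0807) and -3.36 (edgeR adjusted p = 0.075) without the male and female pool of each in turn. It was also lost without the cholangiocyte cluster, at -1.98 (edgeR adjusted p = 0.24), with thinned cells, at -2.99 (edgeR adjusted p = 0.0581), and with sums per plate, at -2.57 (edgeR adjusted p = 0.127). Without that cluster the epithelial call was lost as well. Between cholangiocytes and hepatocytes the log2 fold change was 8.61 (SE 1.48, edgeR adjusted p = 8.26e-05), with 2 of 203 hepatocytes counted. This call was lost with sums per plate and against all hepatocytes summed.

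*Areg* (amphiregulin) and *Egf* were near the limit of counting. All but 1 of the 51 *Areg* counts were in 1 cholangiocyte. *Egf* was counted in 90 cells, at most 3.27 CPM in a population (sinusoidal endothelium, 3.95 CPM in males and 0.133 CPM in females) and 9.14 CPM in a cluster (#m8). Hepatocytes held 1.14 CPM of *Egf*. Of the other EGF-family ligands, *Nrg1* (neuregulin 1, an ERBB3 and ERBB4 ligand) was highest in portal vein endothelium, at 115 CPM in males and 96.6 CPM in females, and #e2 exceeded the other endothelial clusters by a log2 fold change of 8.61 (SE 1.07, edgeR adjusted p = 4.37e-04). *Ereg* (epiregulin) was highest in the stellate cells, at 27.9 CPM in cHSC and 26.5 CPM in HSC, and mesenchymal cells exceeded the other classes by 9.45 (SE 0.96, edgeR adjusted p = 8.77e-04). *Epgn* had no count in any population.

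**Figure D3:**
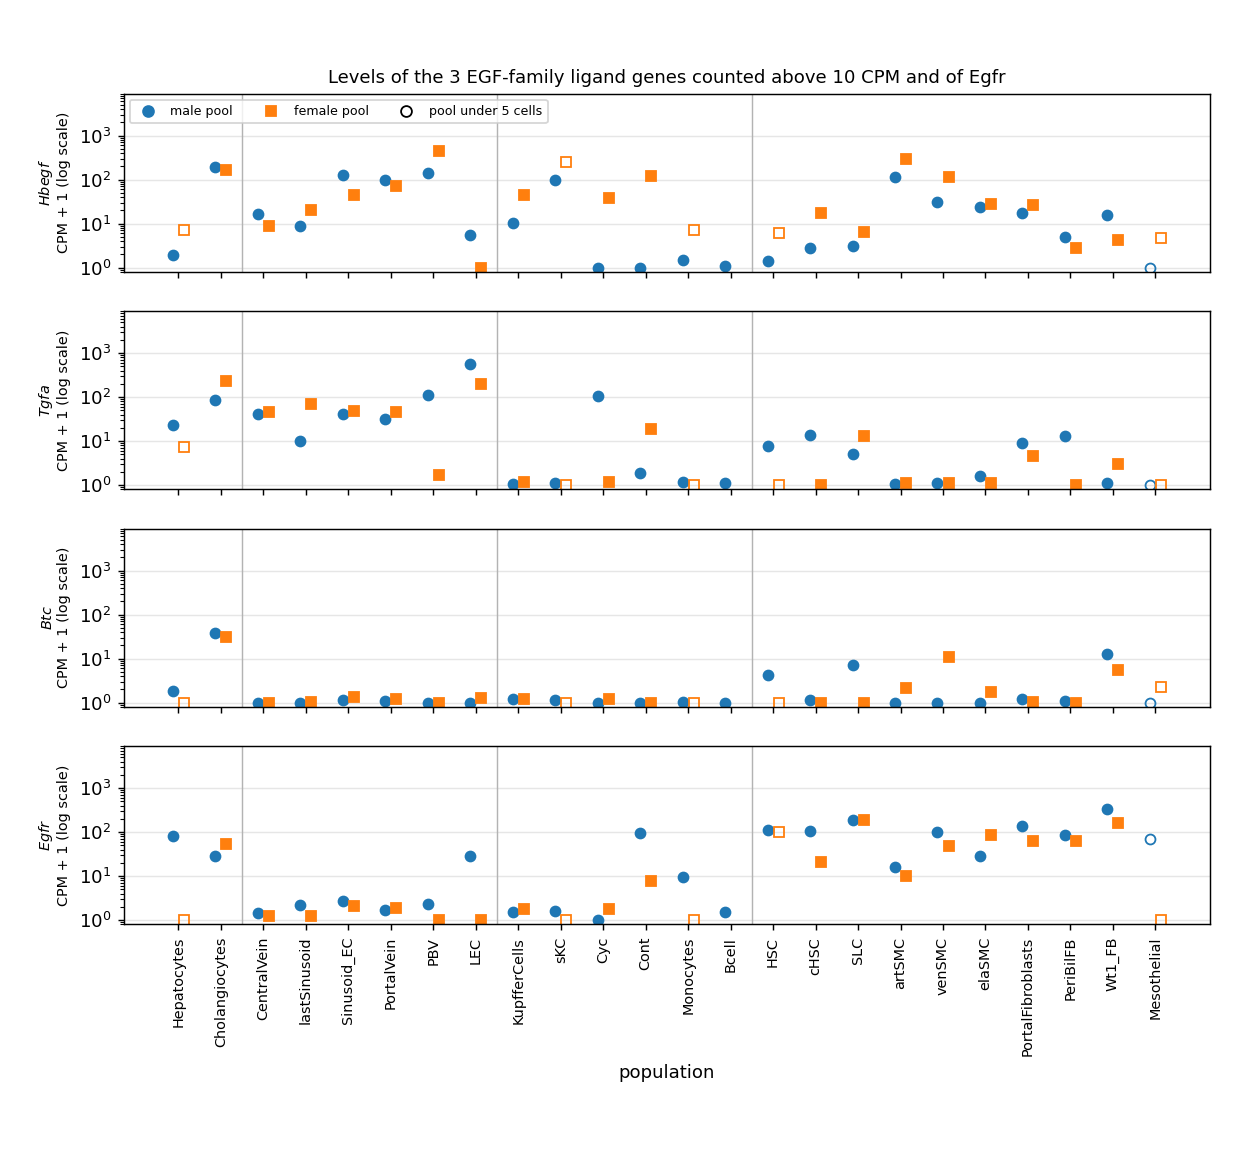
*Hbegf*, *Tgfa*, *Btc* and *Egfr* levels (CPM + 1, log scale) in each population, 1 point per sex pool. Cholangiocytes carry the 3 ligand genes in both pools, and artSMC carry *Hbegf* at 113 and 299 CPM.

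*Egfr*, the receptor of most EGF-family ligands, was highest in mesenchymal cells, at 130 CPM in males and 61.7 CPM in females, followed by epithelial cells with 48.7 CPM in males and 51.6 CPM in females. Immune cells held 4.2 CPM in males and 0.987 CPM in females and endothelial cells 1.51 CPM in males and 0.488 CPM in females. Both mesenchymal pools lay above both pools of the other classes, and both endothelial pools were below both epithelial pools. Against the other classes it rose by 4.33 (SE 0.62, edgeR adjusted p = 0.00344) on the log2 scale in mesenchymal and by 2.91 (SE 0.62, edgeR adjusted p = 0.0184) in epithelial cells. In endothelial cells it was -4.64 (SE 0.92, edgeR adjusted p = 0.0203). Within the male pools, the epithelial level was 0.10 above the mean CPM of the other classes on the log2 scale, since mesenchymal cells held more. The epithelial call was lost without either epithelial pool, at 2.85 (edgeR adjusted p = 0.0806) without the male and 3.02 (edgeR adjusted p = 0.0538) without the female pool. It was also lost with sums per plate. The endothelial call was lost at -5.62 (edgeR adjusted p = 0.0726) without the male and -4.07 (edgeR adjusted p = 0.131) without the female endothelial pool.

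Among mesenchymal cells the mean of the pools was highest in Wt1_FB, which held 327 CPM in males and 158 CPM in females, in 78 of 113 cells (69%, 53.1% thinned), and their cluster #m11c reached 385 CPM. SLC held 190.2 CPM in males and 183.8 CPM in females, which overlapped Wt1_FB and stood above portal fibroblasts, with 137 CPM in males and 61.6 CPM in females. From portal fibroblasts down, venSMC, PeriBilFB and cHSC overlapped each other in turn. HSC held 112 CPM in males and 101 CPM in females and cHSC 103 CPM in males and 19.6 CPM in females. ArtSMC stood at 15.4 CPM in males and 8.86 CPM in females. Hepatocyte markers were at 723 CPM in portal fibroblasts with an *Egfr* count and 769 CPM in those without. In HSC they were at 838 CPM with an *Egfr* count and 608 CPM without, and their part in the *Egfr* counts was not tested. In blood vessel endothelium no population exceeded 1.58 CPM.

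Within hepatocytes, the main cell type of the liver, *Egfr* varied between clusters. The 4 hepatocyte clusters held 222 CPM in #p3 (17 of 23 cells), 111 CPM in #p4 (34 of 59), 49.2 CPM in #p1 (16 of 64) and 13 CPM in #p5 (18 of 57). The exact 95% intervals of the shares were 51.6% to 89.8% in #p3, 44.1% to 70.4% in #p4, 15% to 37.4% in #p1 and 19.9% to 45.2% in #p5, and cover counting error only. The thinned shares were 56.5%, 49.2%, 21.9% and 21.1%. Cluster #p4 was rich in *Cyp2f2*, a gene of periportal hepatocytes, at 1164 CPM, while #p5 was rich in *Cyp2e1*, a gene of pericentral hepatocytes, at 2769.8 CPM. All but 3 of the #p4 and 1 of the #p5 cells lay on 1 plate, where *Egfr* was at 102 CPM in #p4, with a count in 33 cells, and at 13.3 CPM in #p5, with a count in 17 cells. On the 1 plate with at least 5 #p3 cells, *Egfr* was at 171 CPM in that cluster. Cluster #p3 held more *Cyp2e1* than #p5, at 4561 CPM, so *Egfr* did not follow *Cyp2e1* across the 4 clusters. All of these cells were male but for 2 cells of #p1, so the differences have no replicate and were not tested. Mesenchymal markers (*Pdgfra*, *Pdgfrb* and *Col1a1* summed) were at 73.6 CPM in hepatocytes with an *Egfr* count and 23.9 CPM in those without. The stellate markers were at 2.71 and 21 CPM, and the part of either in the *Egfr* counts was not tested. Cholangiocytes held 28.1 CPM in males and 52.9 CPM in females, and their log2 fold change against the hepatocyte clusters was -1.46 (SE 0.69, edgeR adjusted p = 0.0962), which was not called.

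**Figure D4:**
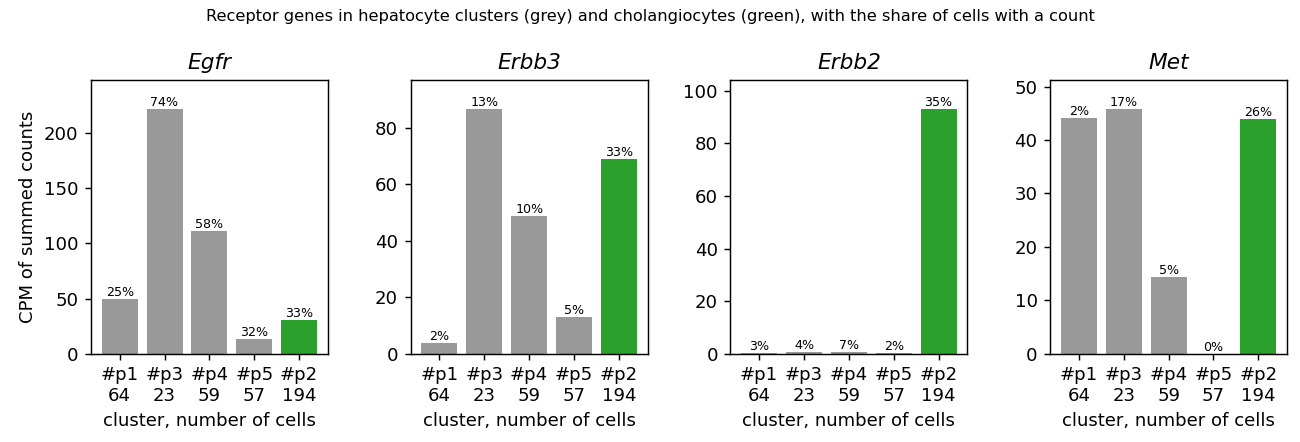
Receptor levels (bars, CPM) in the hepatocyte clusters #p1, #p3, #p4 and #p5 (grey) and the cholangiocyte cluster #p2 (green), with the percentage of cells that had a count above each bar. *Egfr* falls from 222 CPM in #p3 to 13 CPM in #p5, and *Erbb2* is near 0 in all 4 hepatocyte clusters.

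*Erbb2* and *Erbb3*, whose products signal as a pair, were both highest in cholangiocytes among the annotated populations, at 93.2 and 68.9 CPM with both pools summed. By cluster, *Erbb2* was highest in #e8, at 120.3 CPM, and *Erbb3* in #p3, at 86.7 CPM, both above the cholangiocyte cluster. *Erbb2* was broad, at 49.8 CPM in males and 195 CPM in females in epithelial, 47 CPM in males and 47.6 CPM in females in mesenchymal and 31.6 CPM in males and 52.6 CPM in females in endothelial cells. Immune cells held 3.63 CPM in males and 0.519 CPM in females, below all other classes in both pools, with a log2 fold change of -4.79 (SE 1.0043, edgeR adjusted p = 0.0171). That call was lost when the cholangiocyte cluster was left out of the epithelial sums. The epithelial fold change was 2.81 (SE 0.67, edgeR adjusted p = 0.0295), and it was -4.77 without the cholangiocyte cluster. The epithelial call was also lost without the female epithelial pool, at 1.70 (edgeR adjusted p = 0.277), without the male endothelial pool, at 2.68 (edgeR adjusted p = 0.0754), and without the male or female mesenchymal pool, at 2.88 (edgeR adjusted p = 0.0538) and 2.76 (edgeR adjusted p = 0.065). With the sex pool as a replicate block it was lost at 2.80 (edgeR adjusted p = 0.0624), and it was lost with sums per plate. Cholangiocytes held 81.3 CPM in males and 199.6 CPM in females and hepatocytes 0.361 CPM, a log2 fold change of 7.96 (SE 0.93, edgeR adjusted p = 7.09e-07). The share of cells was 35.1% (27.6% thinned) against 3.94% (2.46% thinned).

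Mesenchymal populations held *Erbb2* between 27.5 and 64.8 CPM, mesothelial cells aside, and neighbours in the order overlapped from cholangiocytes to venSMC. In endothelium the sinusoidal cluster #e8 reached 120.3 CPM, while no count was found in 22 LEC, which allows up to 13.6% of cells, or in 14 PBV cells, which allows up to 21.4%.

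*Erbb3*, the kinase-poor partner, was highest in epithelial cells. Epithelial cells held 49.2 CPM in males and 142 CPM in females, immune cells 4.88 CPM in males and 16 CPM in females, mesenchymal cells 0.829 CPM in males and 0.0176 CPM in females and endothelial cells 0.0115 CPM in males and 0.534 CPM in females. Both epithelial pools stood above all others, with a log2 fold change of 6.34 (SE 1.30, edgeR adjusted p = 0.0166). It was 5.54 (edgeR adjusted p = 0.0788) without the female epithelial pool, and the call was also lost without the cholangiocyte cluster. Cholangiocytes held 60.4 CPM in males and 146 CPM in females, in 33% of cells (22.9% thinned). Hepatocytes held 31.6 CPM in 6.4% of cells (5.91% thinned), with 86.7 CPM in #p3 from 3 of 23 cells and 48.9 CPM in #p4 from 6 of 59. On the 1 plate of each with at least 5 cells, #p3 held 13.4 CPM and #p4 31.5 CPM. The log2 fold change of cholangiocytes against the hepatocyte clusters was 1.42 (SE 0.67, edgeR adjusted p = 0.0991), which was not called. Kupffer cells held 3.11 CPM in males and 14.6 CPM in females of *Erbb3* and the group labelled Cont 0 CPM in males and 59.5 CPM in females. The portal vein cluster #e2, at 1.37 CPM, against the other endothelial clusters gave a log2 fold change of 6.38 (SE 1.47, edgeR adjusted p = 0.0547), which was not called.

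In single cells, 30 of 194 cholangiocytes had counts of both *Erbb2* and *Erbb3* (15.5%, where the product of the separate shares is 11.6%). Both were also counted in 6 of 469 Kupffer cells, 5 of 542 sinusoidal cells, 2 of 463 portal fibroblasts, 1 of 114 PortalVein cells and 1 of 26 cells labelled Cont, and in no hepatocyte. *Egfr* and *Erbb2* were counted together in 24 cholangiocytes (12.4%, product of shares 11.6%). At least 1 of the EGF-family ligands was counted in 73.7% of cholangiocytes, 57.4% of sinusoidal cells and 17.2% of hepatocytes. At least 1 of *Egfr*, *Erbb2* and *Erbb3* was counted in 77% of Wt1_FB, 67.5% of cholangiocytes, 46.8% of hepatocytes and 18.5% of central vein endothelial cells. These shares were not thinned, and the median depth was 302428 counts in cholangiocytes and 166736 in hepatocytes. The remaining receptor, *Erbb4*, was at 29.964 CPM in cholangiocytes against 0.75 CPM in hepatocytes.

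The comparisons within classes used sums per cluster and pool with at least 5 cells. Between cholangiocytes and hepatocytes, 5 of 8 genes tested were called higher in cholangiocytes, *Hbegf*, *Tgfa*, *Btc*, *Met* and *Erbb2*, and none lower by edgeR or DESeq2, with *Egfr* lower at an unadjusted p under 0.05. Over all genes 28.6% were called higher and 8.67% lower, and the median log2 fold change was 4.37 for the genes here and 1.38 for all. Only cholangiocytes had a sum in both pools, which left 1 residual degree of freedom. Central vein cluster #e1 had 0 of 8 genes called by edgeR (1.32% of all genes called higher, 0.0873% lower), 1 at an unadjusted p under 0.05 and 1 called lower by DESeq2 (against 0.612% of all genes), *Hgf* in both cases. The clusters it was compared with include #e7, the other central vein cluster. The portal vein cluster had 0 of 8 called by edgeR (1.85% higher, 0.0819% lower), 3 at an unadjusted p under 0.05 (*Met*, *Erbb3* and *Hbegf*) and 0 by DESeq2. The cluster tested, #e2, holds the 114 PortalVein and the 14 PBV cells. *Met* was at 0.0325 CPM in PortalVein (1 cell) and 16.8 CPM in PBV (3 cells), and *Hbegf* at 82.6 and 335 CPM. With the PBV cells left out (#e2c), *Met* was too rarely counted to be tested, *Erbb3* was at 6.54 (edgeR adjusted p = 0.0602) and *Hbegf* at 2.43 (edgeR adjusted p = 0.379). Kupffer cells against other immune cells had 0 of 9 by edgeR (0.995% higher, 1.35% lower), 0 at an unadjusted p under 0.05 and 1 higher by DESeq2 (against 2.12% of all genes), *Hbegf*. The other immune cells had sums in the male pool only. Stellate cells had 1 of 9 called higher (1.89% higher, 0.338% lower), *Hgf*, which had served to find these clusters, and 0 lower by edgeR, DESeq2 or an unadjusted p under 0.05. HSC against cHSC had 0 of 9 by edgeR or DESeq2 (0% higher, 0.0234% lower) and 1 at an unadjusted p under 0.05, *Met*. HSC had 1 sum, from the male pool, so the spread in this comparison came from the other mesenchymal clusters and HSC were assumed to vary like them. Mural cells had 1 of 9 called higher (1.22% higher, 1.04% lower), *Hbegf*, and 0 lower by edgeR, DESeq2 or an unadjusted p under 0.05.

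**Figure D5:**
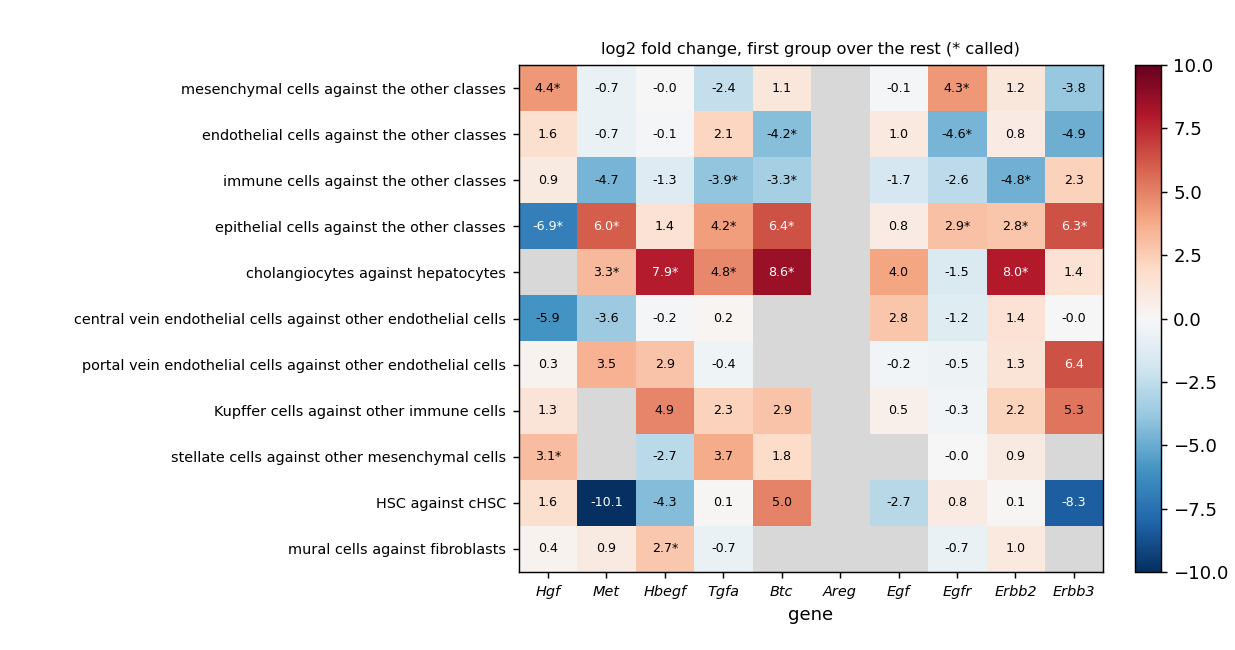
Log2 fold change of each gene in the 11 comparisons, with called values starred and untested or unstable values in grey. *Hgf* and *Met* stand at -6.85 and 6.02 in epithelial cells.

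The other genes of both pathways were a list of 36. In mesenchymal cells 9 of 35 tested were called higher and 3 lower, where 9.47% and 2.33% of all genes were. In endothelial cells 2 were called higher and 2 lower, against 5.33% and 2.96% of all genes. In immune cells these counts were 3 and 6, against 7.92% and 5.25%, and in epithelial cells 10 and 1, against 8.37% and 4.05%. Of the 7 feedback inhibitors, 3 were called higher in mesenchymal cells, 2 higher and 1 lower in endothelial cells, 3 lower in immune cells, and 1 higher and 1 lower in epithelial cells. The shares of all genes are those just given. Among them *Errfi1*, which binds and blocks EGFR-family kinases, rose in mesenchymal (3.16, SE 0.43) and epithelial cells (3.42, SE 0.43) and fell in endothelial (-3.60, SE 0.59) and immune cells (-2.97, SE 0.57), log2 fold changes that each passed the test. *Errfi1* reached 1371 CPM in artSMC and 924 CPM in hepatocytes. *Spry4* rose in endothelial cells (3.51, SE 0.69), with 148 CPM in sinusoids. The sheddase gene *Adam17*, which releases several EGF-family ligands, rose in immune cells (1.60, SE 0.38), and its partner *Rhbdf1* rose in mesenchymal (2.23, SE 0.32) and fell in immune cells (-2.57, SE 0.41). Between cholangiocytes and hepatocytes 13 of 30 were called higher and 3 lower, where 28.6% and 8.67% of all genes were. The higher ones included *Rhbdf2* (5.55, SE 0.87), *Gab1*, an adaptor of MET (4.33, SE 0.99), and *Dusp6*, a phosphatase that ERK signalling induces (4.07, SE 0.64), and those that fell were *Hgfac*, *Plg* and *Mst1*. In the portal vein cluster 3 of 28 rose, against 1.85% of all genes, *Nrg1*, *Plat* (5.32, SE 1.11) and *Lrig1* (4.70, SE 0.95). Stellate cells had 1 of 30, against 1.89% of all genes, and the central vein, Kupffer, HSC against cHSC and mural comparisons had 0 by edgeR.

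For each gene that reached 10 CPM in a cluster, the genes with the most similar pattern were sought across the 30 clusters among 11634 genes. The points share pools and plates, so the Pearson r of log2(CPM + 1) is a description. *Hgf* went most with *Usp35* (r = 0.85), *Ifitm1* (r = 0.84) and *Gm21986* (r = 0.80). *Met* went most with *Myo5b* (r = 0.89), *Slc39a4* (r = 0.88) and *Slc38a4* (r = 0.80). *Egfr* went most with *Agtr1a* (r = 0.94), *Oaf* (r = 0.93) and *Bmp1* (r = 0.92), of which *Agtr1a*, an angiotensin receptor, was also highest in the mesenchyme. *Erbb2* went most with *Pdgfd* (r = 0.91), *Il1r1* (r = 0.88) and *Glis2* (r = 0.88). *Erbb3* went most with *0610040J01Rik* (r = 0.93), *Rnf128* (r = 0.90) and *Hpn* (r = 0.86), the last of which encodes the HGF-activating protease hepsin. *Btc* went most with *Krt19* (r = 0.86) and *Il17re* (r = 0.86), where *Krt19* is a keratin of bile duct cells. *Hbegf* went most with *Tmem51* (r = 0.79), *Mark2* (r = 0.77) and *Map3k12* (r = 0.75). *Tgfa* went most with *Gm17035* (r = 0.82), *Card10* (r = 0.81) and *Ndrg1* (r = 0.79).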

How the data were processed

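Single cells were sequenced by Smart-seq2 as single reads. The authors deposited 1 table of raw counts per gene and cell, and the submitters' processing notes name bcl2fastq, Bowtie, Bowtie2, Subread with featureCounts, Seurat and the GRCm38 or mm10 build, in no stated order. These notes give no versions, and the strand setting is not given in the sources used here. The 92 spike-in controls were left out. The authors had filtered cells, using an upper limit on genes per cell against doublets, and no doublet caller was run here. Class and annotation came from the deposited cell annotation.

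Counts were summed per class or cluster and sex pool, with at least 5 cells per sum within classes. They were tested with edgeR 4.0.16 in R 4.3.3 (TMM, filterByExpr, quasi-likelihood) over 24046 genes between classes and 16694 to 21329 genes within them, with Benjamini-Hochberg adjustment over all genes tested and calls at an adjusted p under 0.05 and an absolute log2 fold change of at least 1. Fold changes with an SE over 20, from sums at 0, are not printed. Because the labels do not name the animals, p-values measure only the spread between these pools. DESeq2 1.42.0, its size factors, no filter, the sex pool as a replicate block, thinned cells, sums per plate, other cell minimums, other cluster sets and leaving out each pool were the alternatives, and a comparison of cholangiocytes with all hepatocytes summed was chosen after seeing the data. Replicate numbers follow the sex of the pools. Deviations of same-sex pools correlated at 0.0864 to 0.11 between classes and at -0.0395 to 0.149 between mesenchymal clusters. On simulated counts with 200 changed genes, 19.2% of genes changed 8-fold were recovered in the mesenchymal comparison over 24046 genes, 30% for cholangiocytes against hepatocytes over 16694 genes, 15.9% for central vein over 18321 genes, 24.6% for stellate cells over 21329 genes and 0% for Kupffer cells over 20110 genes, so that a missing call says little. False calls numbered 7, 4, 6, 37 and 0.

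The rule was to name all 10 genes in every comparison. Within classes the text names those called or with an unadjusted p under 0.05. The genes most alike are the 3 with the highest Pearson r among genes at 50 CPM or more in a cluster. Values of 2 other genes that these rules select are not reported here. The genes, the pathway and marker lists and the tests were chosen with earlier results of these data known.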

Additional observations from a re-analysis of the deposited data

How the results depend on the processing

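The calls of *Hgf* and *Egfr* in mesenchymal cells (3.24 to 5.55 and 3.62 to 4.83 on the log2 scale over the alternatives), *Hgf* and *Met* in epithelial cells (-7.08 to -5.62 and 4.99 to 7.28), and *Hbegf* and *Erbb2* between cholangiocytes and hepatocytes (7.06 to 8.64 and 7.32 to 8.11) held under every alternative run. Without the cholangiocyte cluster the epithelial fold change reversed to -5.00 for *Hbegf* and -4.77 for *Erbb2*, the count called higher in epithelial cells fell from 6 to 2 (against 9.22% of all genes), the count called lower in immune cells from 3 to 0 (5.16%), and endothelial cells had 1 called higher (7.26%) and 1 lower (3.71%). Percentages here are the shares of all genes called that way under the same alternative. Calls lost without that cluster were *Btc* in endothelial, *Tgfa*, *Btc* and *Erbb2* in immune and *Tgfa*, *Btc*, *Erbb2* and *Erbb3* in epithelial cells. Without the male pool *Tgfa* in stellate cells reversed to -4.14, and without the female pool it was 5.002. With DESeq2, 2 genes were called lower in mesenchymal (4.55%) and 5 in immune cells (8.81%), *Hgf* lower in central vein (0.612%) and *Hbegf* higher in Kupffer cells (2.12%). With no filter on low counts, 2 were called lower in mesenchymal (3.41%) and 5 in immune cells (7.11%), and 1 higher in endothelial (6.74%), 1 in immune (8.8%) and 2 in portal vein cells (3.59%). Thinned cells gave 1 lower in mesenchymal (3.23%) and 1 higher in endothelial cells (6.91%). Sums per plate lost *Btc* in immune, *Egfr* and *Erbb2* in epithelial, *Met*, *Tgfa* and *Btc* in cholangiocytes and *Hbegf* in mural cells, and gave 1 higher in endothelial (12.9%), 2 in cholangiocytes (3.73%), 2 in stellate (4.74%) and 0 in mural cells (0.53%), and at least 10 cells per sum gave 1 higher in portal vein cells (1.26%). Against all hepatocytes summed, 2 genes were called higher in cholangiocytes (12.3%). Leaving out 1 pool at a time gave 0 to 1 called higher and 0 to 2 lower in endothelial cells, 1 to 3 lower in immune cells and 3 to 6 higher in epithelial cells, the lowest of these without the female epithelial pool. The cause of these changes was not tested, except that fewer pools leave fewer degrees of freedom.

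The pools share a sex but no named animal. With the sex pool as a replicate block, *Egfr* in immune cells was gained, at -2.81 (edgeR adjusted p = 0.0236), *Erbb2* in epithelial cells was lost, at 2.80 (edgeR adjusted p = 0.0624), and mural cells had 0 genes called higher (1.04% of all genes), with *Hbegf* at 2.22 (edgeR adjusted p = 0.249). No other call of a named gene changed. For cholangiocytes against hepatocytes the block left no residual degrees of freedom and was not run. Between clusters of a class the correlation of same-sex pools was -0.0219 to 0.0999 in endothelial and -0.0283 to 0.127 in immune cells.

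With 2 pools per class, 1 female mesenchymal plate and 39 female epithelial cells, the spread between pools is poorly known. Levels of rarely counted genes rested on few cells, as for *Met* in hepatocytes, where 1 cell gave 53.4% of the counts.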
